A study of Mus musculus with 40 samples.

Results

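Aminoacyl-tRNA synthetases are the enzymes that join each amino acid to its transfer RNA (tRNA), and the mRNAs of 36 listed synthetase genes were followed here through mouse oocytes and early embryos that lacked, or kept, maternal TDP-43. The members were taken by name from the deposited table of FPKM (sequenced fragments scaled to transcript length and to the number mapped), which held all 36 among 24056 genes. They fall into 20 cytosolic genes and 16 mitochondrial genes, whose names end in 2. The 24 RNA-seq libraries form 12 groups of 2, and each library was made from a pool of 20 oocytes or embryos of 7 to 8-week-old females by Smart-seq2, a full-length method that does not mark the strand. In the Tdp43 oKO groups the mothers were Tdp43 flox/flox;Zp3-Cre, so that Cre driven by the oocyte-specific Zp3 promoter deleted the floxed Tdp43 exon in the growing oocyte, and the control mothers were Tdp43 flox/flox without Cre, which the labels call WT. Both kinds of mother shared a C57BL/6J and ICR hybrid background, and the embryos came from matings with ICR males, so that an oKO embryo still received a paternal Tdp43 copy. Collection was at 48 h from PMSG for full-grown oocytes (FGO), at 13 h from HCG for MII oocytes, and at 30, 36 and 48 h from HCG for late 1-cell (1C), early 2-cell (E2C) and late 2-cell (L2C) embryos. In the Trim-away groups, 1-cell embryos were injected with mCherry-Trim21 mRNA together with an antibody to TDP-43 or with normal rabbit IgG. They were then cultured in KSOM medium and collected as L2C at 48 h, whereas the oKO and control L2C embryos were isolated from the females at that time. The Trim-away titles say KD and NC, but the genotype field gives WT for the libraries titled KD and knockdown for those titled NC, so these groups are called by their titles. The sources do not say whether the pools of 1 group came from separate females, so that p-values measure the spread between these pools.

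The cytosolic enzymes supply charged tRNAs to cytosolic ribosomes, whereas the mitochondrial enzymes, also encoded in the nucleus, serve translation inside mitochondria. A subset of the cytosolic enzymes sits in the multi-synthetase complex, which is held together by the scaffold proteins Aimp1, Aimp2 and Eef1e1. Mouse oocytes store maternal mRNAs, which are cleared during maturation and after fertilization, and the embryo's own genome is switched on in a minor and then a major wave by the late 2-cell stage (zygotic genome activation).

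The targeted mRNA, Tardbp, which encodes TDP-43, was lower in every oKO pool than in the control pools of its stage. It was listed at 0.884 to 4.84 FPKM in the 10 oKO libraries, against 6.14 to 20.3 FPKM in the 10 control libraries. Trim-away removes protein, so its Tardbp mRNA, at 3.65 and 3.85 FPKM in libraries titled KD and 5.29 and 5.95 FPKM in libraries titled NC, does not check those labels. Total FPKM differed between groups, most at L2C, where it was 124265 and 126713 in oKO embryos against 209102 and 215926 in control embryos. All 10 oocyte markers listed were at 1 FPKM or more in every library group except the one titled KD, where 9 were. Since the libraries are pools, fewer cells with a transcript and less transcript per cell cannot be told apart.

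Synthetase genes lie on many chromosomes, and 11 of the 36 have exons that overlap exons of another gene in the GENCODE vM1 models of mm9, the build of the files. Hars and Hars2, for the cytosolic and mitochondrial histidyl enzymes, lie head to head on opposite strands with exons that overlap at their 5′ ends. Without strand, reads of such partners cannot be told apart, which also touches Aars, Farsb, Yars and Ears2 below. Kars has a named pseudogene, Kars-ps1, whose reads the counting could share. Promoters are shown for Mars2 (mitochondrial methionyl) and Tars (threonyl), which fell in both L2C comparisons, and for Farsa and Farsb, the alpha and beta subunits of the cytosolic phenylalanyl enzyme, of which Farsa alone was called at L2C. Each is the 250 bases before the RefSeq start (table of GRCm38.p6), found once in the mm9 genome at chr1:55293771-55294020 (+ strand), chr15:11329414-11329663 (- strand), chr8:87380635-87380884 (+ strand) and chr1:78485473-78485722 (- strand). Capitals mark matches, on either strand, of TGATGNAA (the C/EBP-ATF response element), CACGTG (an E-box), CCGGAAG (an ETS site), GGGCGG (a GC box) or CCAAT, and none of the marked matches overlap.
Mars2: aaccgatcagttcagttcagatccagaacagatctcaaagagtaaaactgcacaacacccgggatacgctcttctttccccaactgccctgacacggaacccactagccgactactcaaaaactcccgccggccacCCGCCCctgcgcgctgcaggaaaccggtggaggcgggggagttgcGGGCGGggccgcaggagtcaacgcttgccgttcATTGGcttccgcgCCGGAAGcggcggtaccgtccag
Tars: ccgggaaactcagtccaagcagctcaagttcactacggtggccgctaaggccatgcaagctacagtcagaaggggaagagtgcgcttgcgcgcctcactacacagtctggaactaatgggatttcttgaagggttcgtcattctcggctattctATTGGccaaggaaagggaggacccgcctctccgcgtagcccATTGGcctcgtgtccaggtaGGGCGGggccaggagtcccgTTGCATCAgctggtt
Farsa: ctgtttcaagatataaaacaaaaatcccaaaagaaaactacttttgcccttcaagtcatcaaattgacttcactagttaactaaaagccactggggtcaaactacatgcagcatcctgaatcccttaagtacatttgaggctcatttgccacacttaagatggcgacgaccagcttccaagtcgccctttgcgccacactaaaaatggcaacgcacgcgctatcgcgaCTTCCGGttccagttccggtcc
Farsb: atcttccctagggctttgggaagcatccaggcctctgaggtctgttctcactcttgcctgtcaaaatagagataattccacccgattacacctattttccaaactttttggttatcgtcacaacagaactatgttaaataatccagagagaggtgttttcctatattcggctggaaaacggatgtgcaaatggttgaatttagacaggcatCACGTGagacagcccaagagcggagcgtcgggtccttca
The table held promoters of 27 members and none was used for Cars, Hars, Lars, Nars, Rars, Vars, Wars, Hars2 and Pars2. TGATGNAA was found before 3 of the 27 (Aars, Gars and Tars; 11.1%), against 3.45% of 32851 promoters of the same length. GGGCGG was found before 17 of 27 (63.0%), against 32.7% of all, CCGGAAG before 7 (25.9%, against 6.91%), CCAAT before 12 (44.4%, against 33.8%) and CACGTG before 3 (11.1%, against 6.02%). The motif TATAAA, not marked, was found before 3 (11.1%, against 12.4%), and TGTGTG, a TG repeat also left unmarked, before 4 (14.8%, against 17.9%). These matches are letters in a window and say nothing of binding.

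In controls most cytosolic synthetase mRNAs reached 1 FPKM at every stage but E2C, whereas the mitochondrial set was carried by very few genes. In control FGO, 18 of the 20 cytosolic genes were at 1 FPKM or more in both libraries, as were 15 in MII oocytes, 16 in 1C, 9 in E2C and 16 in L2C embryos. The corresponding numbers for the 16 mitochondrial genes were 4, 3, 3, 3 and 9. Up to E2C the mitochondrial signal came mainly from Fars2 (phenylalanyl), Lars2 (leucyl) and Rars2 (arginyl). Vars (cytosolic valyl) never passed 0.193 FPKM in any of the 24 libraries, and Aars2, Iars2, Nars2, Pars2 and Vars2 also stayed under 1 FPKM in all of them. Mars, Sars2, Tars2 and Wars2 reached at most 1.76, 1.77, 2.20 and 1.93 FPKM.

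**Figure D1:**
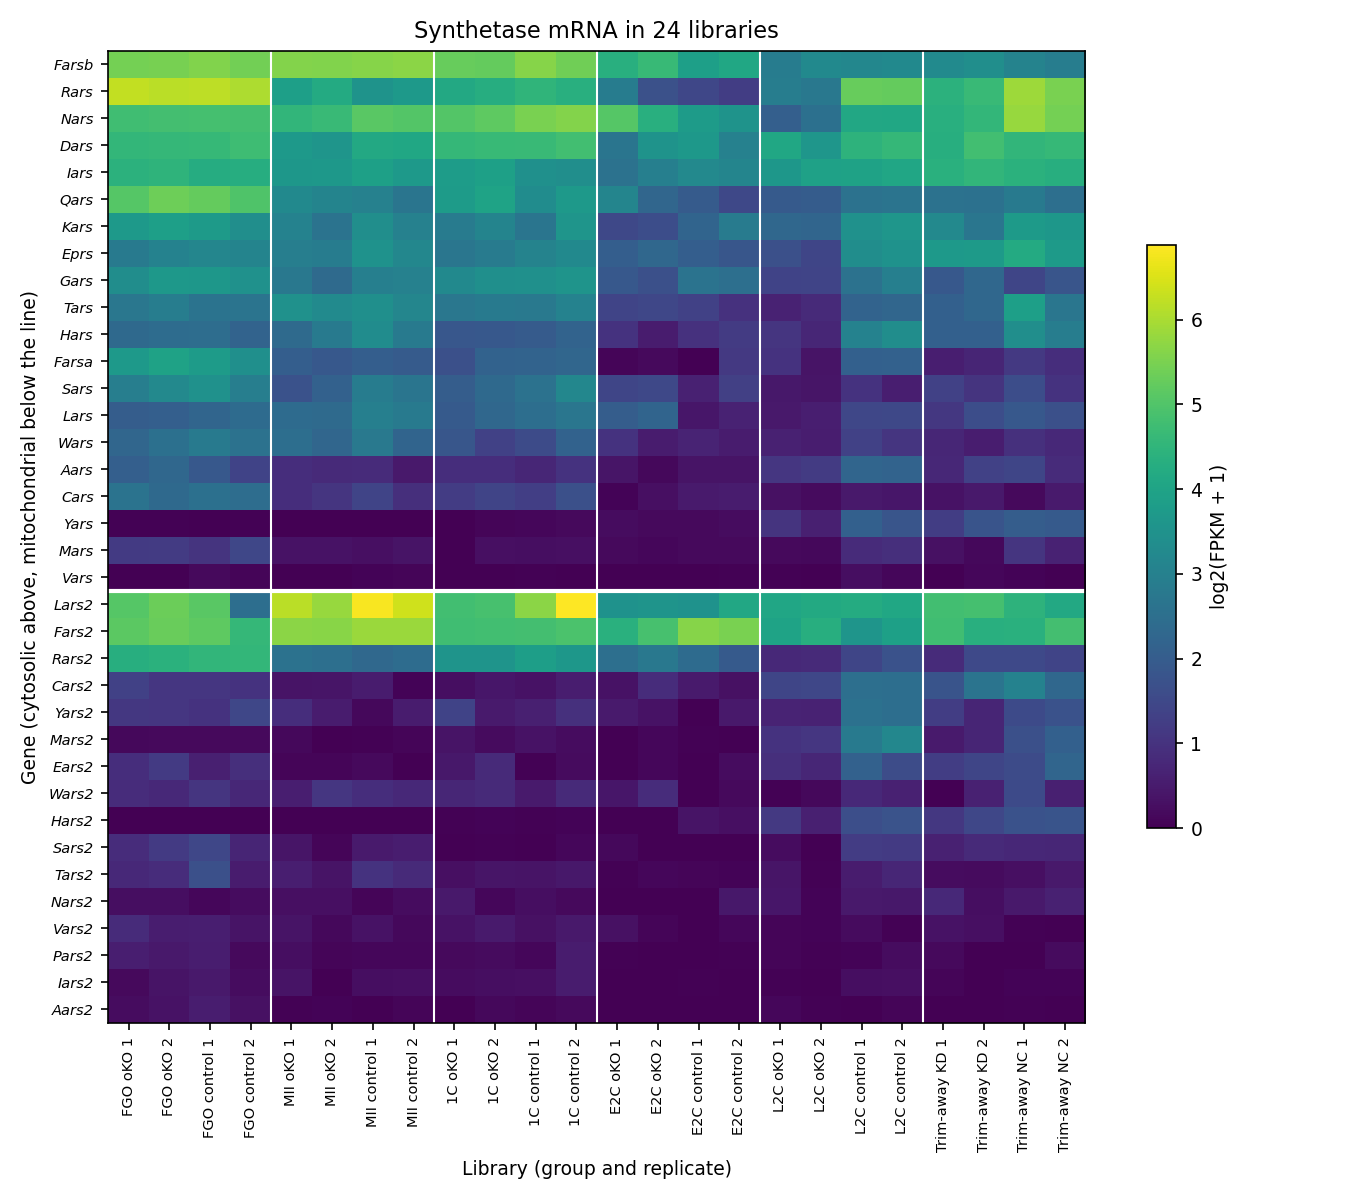
Level of each synthetase mRNA as log2(FPKM + 1), with genes down the page (cytosolic above the white line, mitochondrial below it, each ordered by mean level) and the 24 libraries across, the oKO or KD pools left of their control or NC pools. The mitochondrial block is dark except for Lars2, Fars2 and Rars2 until L2C, and for most genes the oKO L2C columns are darker than the control L2C columns beside them.

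Summed over the 20 cytosolic genes, oKO embryos held 177 and 192 FPKM at 1C, 93.2 and 83.6 at E2C, and 61.1 and 60.1 at L2C. Control embryos held 207 and 222 FPKM at 1C, 68.1 and 65.2 at E2C, and 154 and 162 at L2C, so that the oKO pools lay above the controls at E2C and below them at 1C and L2C. Nars (32.7 and 19.1 FPKM in oKO E2C against 12.8 and 10.5 in control E2C) gave much of the E2C excess. Farsb (19.2 and 23.9 against 13.6 and 16.2 FPKM) came next, whereas genes such as Gars, Kars and Iars lay lower in both oKO pools. As parts of 1000000 of each library's total FPKM, the L2C sums were 492 and 474 in oKO embryos against 738 and 750 in control embryos. The mitochondrial sum behaved differently by that measure: it was 305 and 327 parts in oKO L2C against 263 and 266 parts in control L2C, although in FPKM it was 37.9 and 41.5 against 54.9 and 57.5. Lars2 and Fars2 gave much of that sum. The median of the 16 genes was 0.467 and 0.311 FPKM in oKO L2C against 1.52 and 1.65 in control L2C. Of 8 mitochondrial genes tested at L2C, 7 had a negative log2 fold change on the deposited scale.

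**Figure D2:**
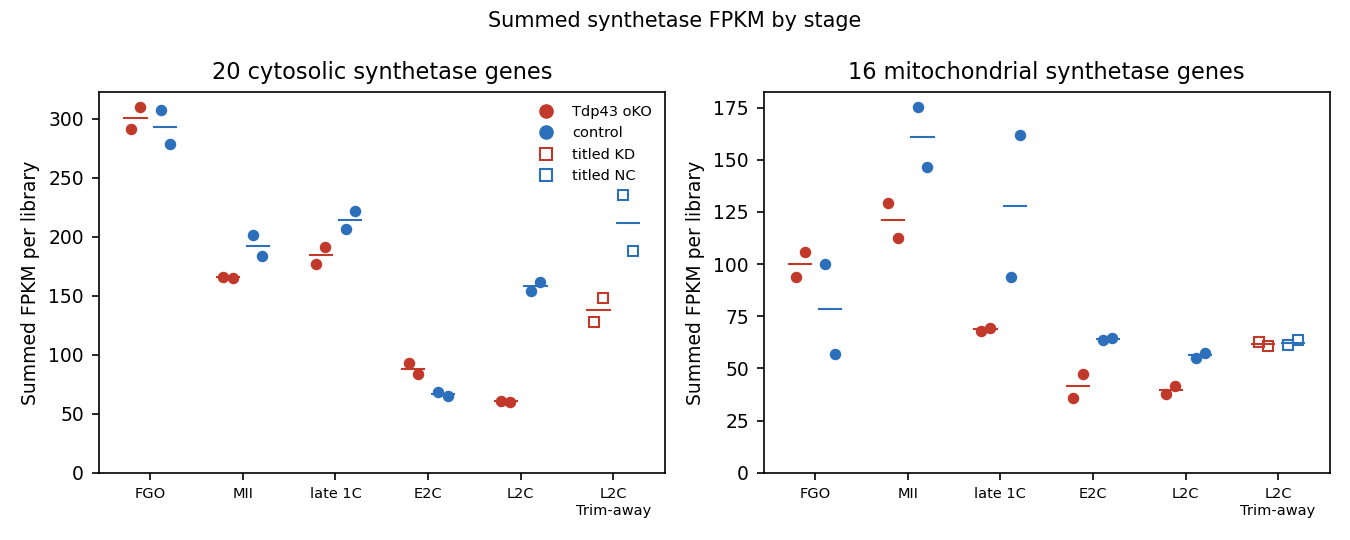
Summed FPKM per library (y axis) of the 20 cytosolic genes (left) and the 16 mitochondrial genes (right) by stage (x axis). Points are libraries and bars the mean of 2; oKO or KD is drawn left of its control or NC. At L2C the cytosolic sums are 61.1 and 60.1 FPKM in oKO embryos and 154 and 162 FPKM in control embryos.

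How these mRNAs move in the normal course was read from the control libraries. Each step was tested with limma on log2(FPKM + 1), over genes with a mean of at least 1 FPKM in the libraries compared, and a gene was called at an adjusted p of at most 0.05 with at least a 2-fold change on that scale. From FGO to MII, 5 of 21 members tested fell (27.9% of all genes tested fell) and 1 rose (7.99%). Rars, for the arginyl enzyme, was at 10.7 and 11.9 FPKM in control MII oocytes against 71.6 and 64.4 FPKM in control FGO (log2 fold change -2.49 ± 0.18, standard error here and below). Qars (glutaminyl; -2.26 ± 0.19), Rars2 (-2.15 ± 0.16), Farsa (-1.59 ± 0.22) and Cars (cysteinyl; -1.33 ± 0.17) fell as well. The rise of Lars2 (2.80 ± 0.56) was measured at 111 and 82.1 FPKM in MII against 33.5 and 4.58 FPKM in FGO, where the pools differed widely. From MII to 1C, Rars2 rose (1.37 ± 0.16) and Hars fell (-1.02 ± 0.20) among 19 tested, where 14.4% of all genes rose and 11.1% fell. The call on Hars was lost without MII control replicate 1 or without 1C control replicate 1, which left 1 call.

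From 1C to E2C the cytosolic mRNAs went down together. Of 19 members tested, 13 fell and none rose by the limma test, against 37.3% of all genes that fell and 8.29% that rose; 17 of the 19 had an unadjusted p under 0.05. They were 11 of 16 cytosolic genes, with a median log2 fold change of -1.46 against -0.72 over all genes, and Lars2 and Rars2; Farsa, Lars, Sars and Wars had an E2C mean under 1 FPKM and entered the test through 1C. Rars had the largest change, at 1.78 and 1.38 FPKM in control E2C against 21.6 and 19.1 FPKM in control 1C (-3.05 ± 0.25). Lars (leucyl; -2.06 ± 0.21), Sars (seryl; -1.93 ± 0.32) and Nars (asparaginyl; -1.90 ± 0.21) followed. Lars2 (-2.47 ± 0.79) and Rars2 (-1.57 ± 0.22) were the mitochondrial members called, Lars2 not without E2C control replicate 1 or 2, and Wars (tryptophanyl) was not called without 1C control replicate 2. Fars2 was at 48.2 and 43.7 FPKM in E2C against 27.4 and 29.5 FPKM in 1C (0.67 ± 0.25, not called). Since the median gene was itself lower at E2C, the libraries were also brought to a common median ratio, after which 5 members fell, Fars2 rose, and 21.0% of all genes rose and 12.6% fell.

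At the next step, from E2C to L2C, 14 of 23 members tested rose, against 39.7% of all genes, and 1 fell, against 23.0%. Among 9 cytosolic genes that rose, Rars was at 38.1 and 37.4 FPKM in control L2C against 1.78 and 1.38 FPKM in control E2C (3.91 ± 0.27). Hars (2.14 ± 0.28), Aars (alanyl; 1.86 ± 0.28) and Yars (tyrosyl; 1.75 ± 0.19) came next, and Yars had not passed 0.181 FPKM in any library of an earlier stage. The 5 mitochondrial genes that rose were Mars2 (2.99 ± 0.18), Yars2 (tyrosyl; 2.29 ± 0.34), Cars2 (cysteinyl; 2.10 ± 0.29), Ears2 (glutamyl; 1.75 ± 0.26) and Hars2 (1.37 ± 0.18). Mars2, an intronless gene in the gene models, was at 6.15 and 8.10 FPKM in control L2C against 0.0205 and 0.00738 FPKM in control E2C. Fars2 fell, to 10.9 and 14.0 FPKM in L2C against 48.2 and 43.7 FPKM in E2C (-1.81 ± 0.26). In 8 of the 15 called members the E2C mean was under 1 FPKM, so that they entered the test through L2C alone. Calls were lost for Farsa and Kars without E2C control replicate 1, for Dars and Tars without E2C control replicate 2, for Yars, Ears2 and Hars2 without L2C control replicate 1, and for Kars and Hars2 without L2C control replicate 2. With a common median ratio, 11 rose and 2 fell, where 35.1% of all genes rose and 26.9% fell.

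In FGO, MII oocytes and 1C embryos no synthetase mRNA was called between oKO and control by limma. Of 25 members tested in FGO, 2 had an unadjusted p under 0.05, as had 8 of 19 in MII oocytes and 6 of 19 in 1C embryos. The shares of all genes called higher and lower were small too, with 1.74% and 1.32% for FGO, 4.28% and 1.35% for MII and 1.74% and 2.45% for 1C embryos. How many of all genes had an unadjusted p under 0.05 was not counted. In MII oocytes 13 of 16 cytosolic genes tested had a negative log2 fold change, with a median of -0.29 against -0.07 over all genes. The cytosolic members of highest mean level were Farsb and Rars. Farsb was at 42.5 and 43.1 FPKM in oKO FGO against 46.9 and 42.0 in control FGO, at 48.0 and 46.3 in oKO MII against 48.3 and 50.4 in control MII, and at 38.2 and 36.9 in oKO 1C against 48.7 and 41.0 in control 1C. Rars was at 75.0 and 71.4 FPKM in oKO FGO against 71.6 and 64.4 in control FGO, at 13.7 and 17.4 in oKO MII against 10.7 and 11.9 in control MII, and at 16.8 and 18.6 in oKO 1C against 21.6 and 19.1 in control 1C. Neither gene was called at any of the 3 stages, and in FGO the pools overlapped for both. Below a 2-fold change on the log2(FPKM + 1) scale, limma gave adjusted p values of at most 0.05 for Aars in FGO (0.56 ± 0.18) and for Iars in 1C embryos (0.43 ± 0.14). In MII oocytes it gave such values for Sars (-0.85 ± 0.24), Lars (-0.50 ± 0.16) and Nars (-0.47 ± 0.16).

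Among the mitochondrial members of highest mean level, Fars2 was at 34.6 and 38.4 FPKM in oKO FGO against 35.1 and 23.2 in control FGO, at 50.4 and 49.8 in oKO MII against 56.7 and 56.8 in control MII, and at 26.4 and 26.5 in oKO 1C against 27.4 and 29.5 in control 1C. Lars2 varied widely between pools of the FGO and 1C control groups. It was at 32.5 and 39.7 FPKM in oKO FGO against 33.5 and 4.58 in control FGO, at 70.2 and 55.3 in oKO MII against 111 and 82.1 in control MII, and at 26.6 and 28.5 in oKO 1C against 50.0 and 117 in control 1C. Without control replicate 1 of FGO, Lars2 was the only member called (higher in oKO), and without control replicate 1 of 1C it was again the only one (lower in oKO). Blood and immune markers summed to 2.36 to 5.04 FPKM in oKO 1C and to 23.4 to 198 FPKM in control 1C, mostly from S100a8 and S100a9, with 1 of 9 markers at 1 FPKM or more in both oKO libraries and 2 of 9 in both control libraries; their part in these values was not tested. The change in effect from one stage to the next was not called for any member: for MII against FGO, 3 of 20 tested had an unadjusted p under 0.05 (3.97% of all genes were called; Lars2 and Sars were called without FGO control replicate 1), and for 1C against MII, 2 of 19 (5.65%).

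At E2C, 2 cytosolic genes were higher in oKO embryos, Lars and Nars, and no member was lower, among 15 tested of which 8 had an unadjusted p under 0.05. Lars, a member of the multi-synthetase complex, was at 3.06 and 3.62 FPKM in oKO E2C against 0.332 and 0.564 FPKM in control E2C (log2 fold change 1.59 ± 0.25, adjusted p = 0.00025). Nars was at 32.7 and 19.1 FPKM in oKO E2C against 12.8 and 10.5 FPKM in control E2C (1.05 ± 0.25, adjusted p = 0.0073). Both oKO pools lay above both control pools for each gene, and Lars, with a control mean under 1 FPKM, entered the test through the oKO libraries. In oKO 1C embryos Lars had been at 2.86 and 3.95 FPKM, and the difference between the E2C and the 1C effect was called for Lars (2.04 ± 0.30, adjusted p = 0.00022) and Nars (1.49 ± 0.30, adjusted p = 0.0038) among 18 members tested, where 5.45% of all genes were called. That comparison gave 4 calls without 1C control replicate 2 or without oKO E2C replicate 2, and Lars alone without E2C control replicate 2. Of 6657 genes tested at E2C, 3.59% were called higher and 7.89% lower.

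Rars and Qars also lay higher in both oKO pools without reaching a 2-fold change on the log2(FPKM + 1) scale. Rars was at 6.37 and 2.29 FPKM in oKO E2C against 1.78 and 1.38 in control E2C (0.94 ± 0.30, adjusted p = 0.039), and Qars at 7.73 and 3.82 FPKM in oKO E2C against 2.92 and 1.82 in control E2C (0.96 ± 0.31, adjusted p = 0.040). Kars, Gars and Iars lay lower in both oKO pools and were not called. Kars was at 1.79 and 2.11 FPKM in oKO E2C against 3.64 and 6.21 in control E2C (log2 fold change -0.97). Gars was at 2.69 and 2.18 FPKM in oKO E2C against 5.18 and 4.65 in control E2C. Of 12 cytosolic genes tested, 8 had a positive and 4 a negative log2 fold change. With a common median ratio or quantile normalization, Lars, Nars, Qars and Rars were all called higher. Lars remained called without any one library, whereas Nars was called only when oKO replicate 2 was the library left out, giving 1 call without each of the other 3 libraries and 5 without that one. No mitochondrial member was called: Fars2 was at 19.5 and 28.4 FPKM in oKO E2C against 48.2 and 43.7 in control E2C (-0.93 ± 0.29, adjusted p = 0.037), and Lars2 at 10.3 and 10.7 against 10.3 and 16.3 (-0.28 ± 0.89).

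**Figure D3:**
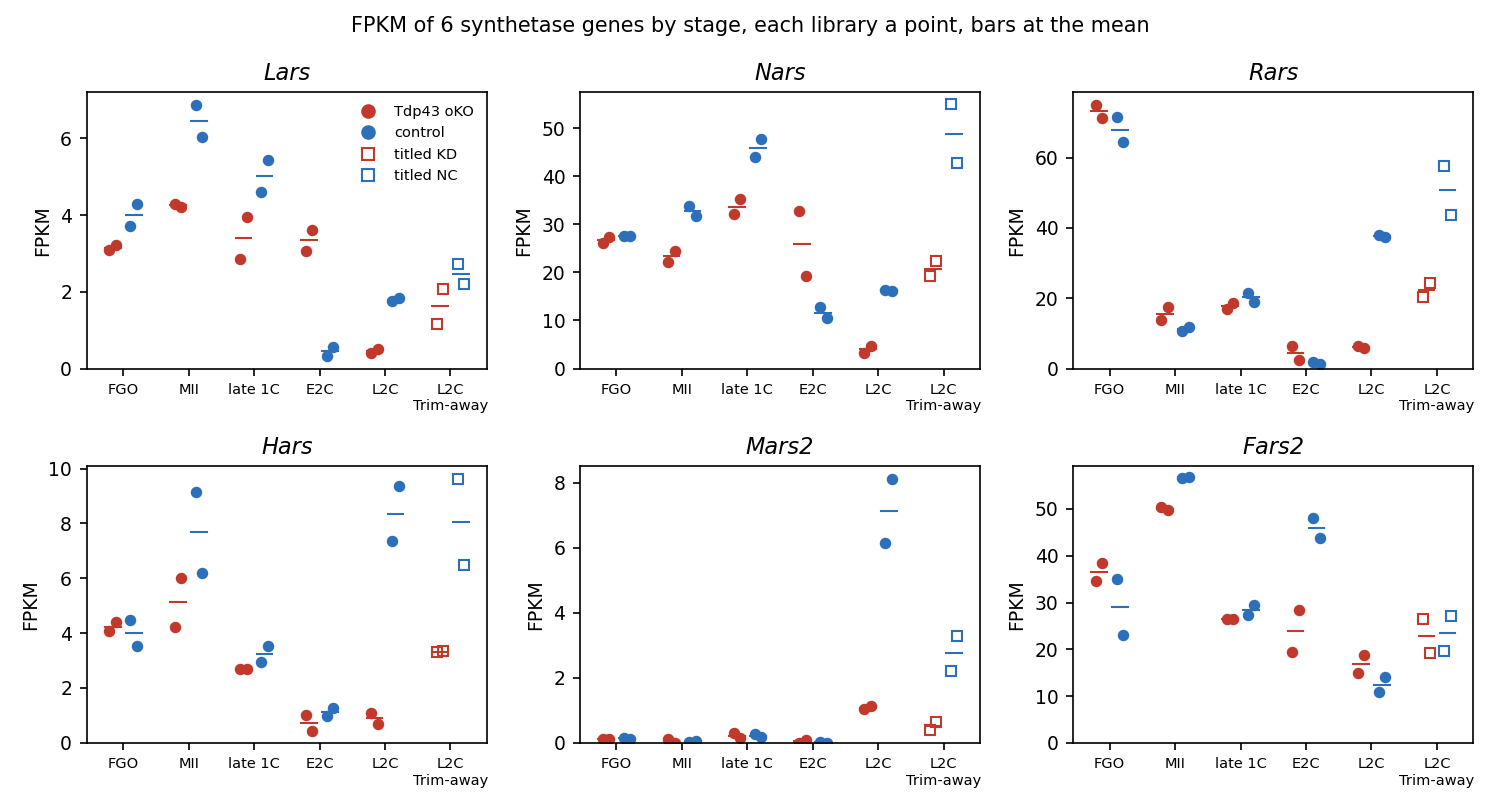
FPKM (y axes, each from 0) of Lars, Nars, Rars, Hars, Mars2 and Fars2 by stage (x axes). Points are libraries and bars the mean of 2; oKO or KD is drawn left of its control or NC. Lars stands at 3.06 and 3.62 FPKM in oKO E2C against 0.332 and 0.564 FPKM in control E2C, and at 0.398 and 0.504 FPKM in oKO L2C against 1.76 and 1.83 FPKM in control L2C.

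At L2C, 14 of 23 members tested were lower in oKO embryos and none was higher, 10 of them cytosolic (of 15 tested) and 4 mitochondrial (of 8 tested). A lower call was frequent at this stage, with 40.7% of 7760 genes called lower and 6.80% higher, and the median log2 fold change was -1.08 over the members tested against -0.79 over all genes. In 6 of the 14 the oKO mean was under 1 FPKM, so that they entered the test through the control libraries, and 13 members were not tested. With a common median ratio the shift of all genes went to -0.07, 16.5% of all genes were called higher and 15.5% lower, and 8 members were lower and 1 higher; quantile normalization gave the same 9 members. The 8 were Rars, Hars, Eprs, Nars, Tars, Farsa, Mars2 and Yars2, and the fall of Gars, Kars, Yars, Aars, Cars2 and Ears2 was called on the deposited scale but not under either scaling. Without oKO replicate 2 or without control replicate 1, Yars and Ears2 were not called. Ranges of adjusted p on that scale were 7.4e-08 to 0.0012 for the cytosolic calls and 1.0e-08 to 0.0011 for the mitochondrial calls.

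Among the cytosolic genes tested, Rars had the largest fall on the log2(FPKM + 1) scale, at 6.54 and 5.75 FPKM in oKO L2C against 38.1 and 37.4 FPKM in control L2C (-2.44 ± 0.24). Hars was at 1.09 and 0.680 FPKM in oKO L2C against 7.35 and 9.37 in control L2C (-2.31 ± 0.25), with a ratio of mean FPKM of 0.106 against 0.163 for Rars. Eprs, which charges both glutamate and proline, was at 2.22 and 1.73 FPKM in oKO L2C against 9.29 and 10.5 in control L2C (-1.87 ± 0.20). For all 3 genes both oKO pools lay far below both control pools, with no overlap, which is no support beyond the call. Nars, higher at E2C, was at 3.27 and 4.77 FPKM in oKO L2C against 16.4 and 16.1 in control L2C (-1.80 ± 0.20). Tars was at 0.587 and 0.766 FPKM in oKO L2C against 3.55 and 3.81 in control L2C (-1.48 ± 0.25). Its promoter is the one of the 4 shown that holds the TGATGNAA match, which Aars and Gars hold as well. A link of the match to these values was not tested.

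Of Farsa and Farsb, whose products form 1 enzyme, only Farsa was called. It was at 1.03 and 0.287 FPKM in oKO L2C against 3.35 and 3.42 in control L2C (-1.44 ± 0.28), and Farsb at 6.45 and 8.56 FPKM in oKO L2C against 8.13 and 8.60 in control L2C (-0.15 ± 0.17, not called; 0.65 with a common median ratio). In oKO pools Farsb was thus the more abundant of the pair by FPKM, as it was in control pools; whether the pair's effects differ from each other was not tested. Gars and Kars, whose genes also give rise to the mitochondrial glycyl and lysyl enzymes, both fell. Gars was at 1.59 and 1.68 FPKM in oKO L2C against 5.08 and 6.82 in control L2C (-1.39 ± 0.21). Kars was at 3.93 and 3.77 FPKM in oKO L2C against 10.2 and 11.2 in control L2C (-1.27 ± 0.31). Yars (1.05 and 0.511 FPKM in oKO against 3.32 and 2.49 in control; -1.14 ± 0.16) and Aars (1.12 and 1.30 FPKM in oKO against 3.77 and 3.58 in control; -1.08 ± 0.24) completed the cytosolic calls.

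The other cytosolic genes tested were Lars, Qars, Dars and Iars. Lars was at 0.398 and 0.504 FPKM in oKO L2C against 1.76 and 1.83 in control L2C (-0.95 ± 0.20, adjusted p = 0.00033), just short of a 2-fold change on the log2(FPKM + 1) scale, which understates the change of low genes. Qars (-0.64 ± 0.24), Dars (aspartyl; -0.64 ± 0.23) and Iars (isoleucyl; -0.23 ± 0.17) were not called, and with a common median ratio their values were 0.06, 0.19 and 0.60. Of 7 complex members tested 3 were lower, against 7 of 8 cytosolic genes outside the complex and 40.7% of all genes. Of 9 class II enzymes tested 7 were lower, against 2 of 5 of class I, and Eprs carries both folds. With a common median ratio the complex members lower were Rars and Eprs, and those outside it Hars, Nars, Tars and Farsa. These splits were not tested. Cars, Mars, Sars, Vars and Wars did not reach a mean of 1 FPKM over the L2C libraries; Mars was listed at 0.119 and 0.101 FPKM in oKO against 0.813 and 0.900 in control.

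**Figure D4:**
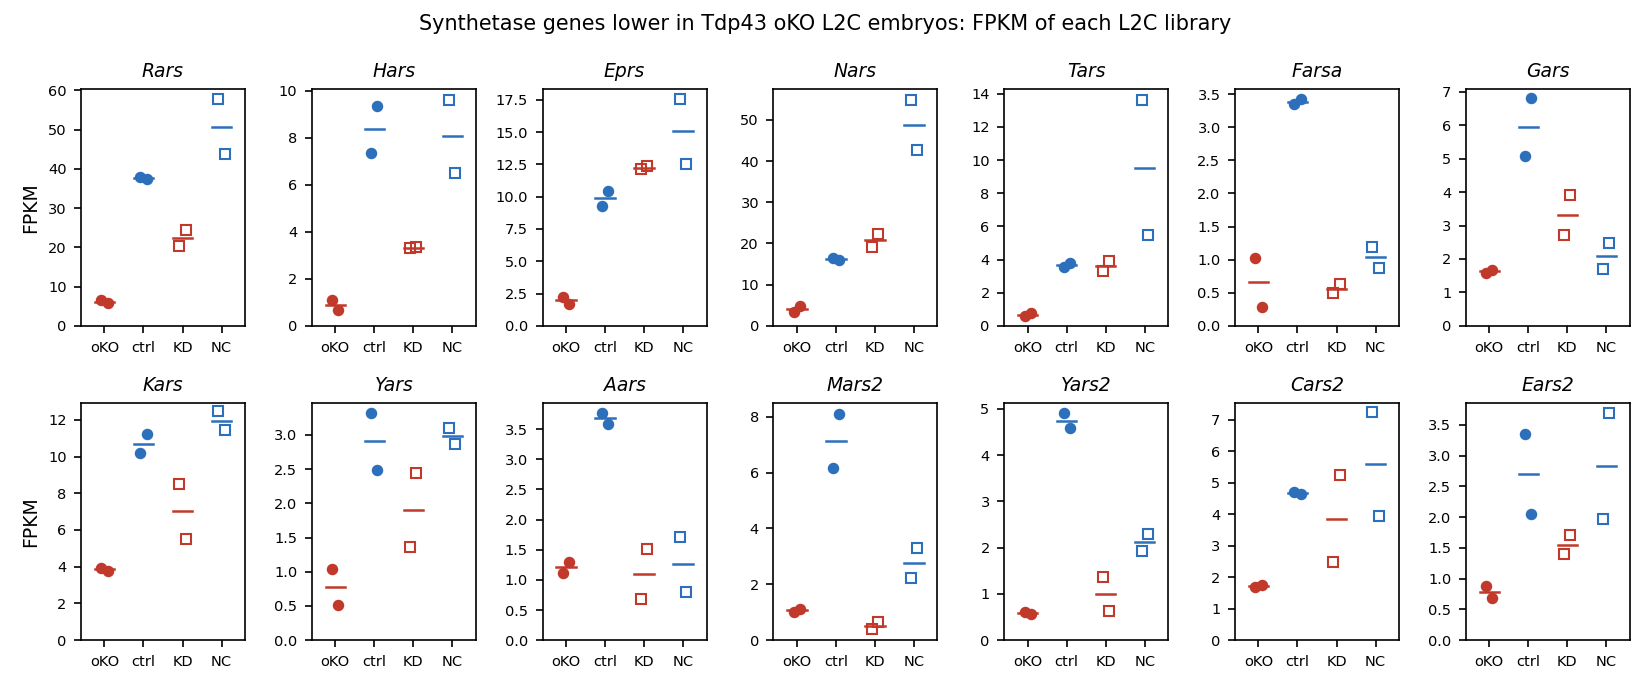
FPKM (y axes, each from 0) in each L2C library of the 14 genes lower in oKO L2C, from the left oKO, control, titled KD and titled NC. Points are libraries and bars the mean of 2. In every panel both oKO points lie below both control points, and for Mars2, Nars, Rars, Tars and Hars, called lower in KD, both KD points lie below both NC points. The genes were chosen by these calls, so that this separation is no further support.

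In the mitochondrial set, Mars2 and Yars2 changed most. Mars2, which charges the methionine tRNA that serves both initiation and elongation in mitochondria, was at 1.02 and 1.12 FPKM in oKO L2C against 6.15 and 8.10 in control L2C (-1.96 ± 0.16). Yars2 was at 0.600 and 0.570 FPKM in oKO L2C against 4.91 and 4.58 in control L2C (-1.86 ± 0.29). Cars2 was at 1.70 and 1.75 FPKM in oKO L2C against 4.70 and 4.65 in control L2C (-1.06 ± 0.25). Ears2, which charges both the glutamate and the glutamine tRNA of mitochondria, was at 0.884 and 0.682 FPKM in oKO L2C against 3.36 and 2.05 in control L2C (-1.03 ± 0.22). For each of the 4 both oKO pools lay below both control pools, which is no support beyond the call. Hars2 (-0.83 ± 0.15) and Rars2 (-0.78 ± 0.20) passed an adjusted p of 0.05 by limma without a 2-fold change on the log2(FPKM + 1) scale.

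The 2 mitochondrial genes of highest level showed no fall. Lars2 was at 15.8 and 17.0 FPKM in oKO L2C against 17.8 and 16.1 in control L2C (-0.04 ± 0.75; 0.79 with a common median ratio). Fars2 was at 14.9 and 18.8 FPKM in oKO L2C against 10.9 and 14.0 in control L2C (0.41 ± 0.23, not called), and was called higher with a common median ratio (1.25) and with quantile normalization (1.39). Both oKO pools lay above both control pools for Fars2. Aars2, Iars2, Nars2, Pars2, Sars2, Tars2, Vars2 and Wars2 were not tested; Sars2 was listed at 0.175 and 0.000243 FPKM in oKO against 1.34 and 1.26 in control.

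Few markers of other cells reached 1 FPKM in both libraries of an L2C group. Of 12 cumulus and granulosa markers none was at 1 FPKM in both libraries of either L2C group, with sums of 1.06 to 1.18 FPKM in oKO against 0.426 to 0.701 in control, and Inha and Inhba were at 0 in all 4 libraries. Of 9 blood and immune markers 1 was, Hba-a1, with sums of 21.4 to 22.6 FPKM in oKO against 12.9 to 16.4 in control, and Ptprc and Csf1r were at 0 in all 4. Of 6 male germ cell markers 1 was, Ldhc, with sums of 6.34 to 6.37 against 18.0 to 26.2 FPKM, and of 6 oviduct markers 1 was, Epcam, with sums of 9.71 to 13.3 against 22.2 to 23.8 FPKM. Their part in the synthetase values was not tested.

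In the Trim-away experiment, which removes the protein after fertilization, 5 of 23 members tested were lower in libraries titled KD and none was higher, where 8.47% of 8100 genes were called lower and 7.86% higher. Mars2 was at 0.406 and 0.638 FPKM in libraries titled KD against 2.22 and 3.28 in libraries titled NC (-1.29 ± 0.18, adjusted p = 0.00010), and entered the test through the libraries titled NC. Nars was at 19.2 and 22.3 FPKM in libraries titled KD against 54.9 and 42.6 in libraries titled NC (-1.18 ± 0.23, adjusted p = 0.00093). Rars was at 20.3 and 24.4 FPKM in libraries titled KD against 57.7 and 43.7 in libraries titled NC (-1.14 ± 0.27, adjusted p = 0.0042). None of these 3 genes overlapped between the groups, and the same held for Tars and Hars, which is no support beyond the call. Tars was at 3.33 and 3.92 FPKM in libraries titled KD against 13.6 and 5.45 in libraries titled NC (-1.07 ± 0.29, adjusted p = 0.0092). Hars was at 3.30 and 3.34 FPKM in libraries titled KD against 9.62 and 6.48 in libraries titled NC (-1.05 ± 0.28, adjusted p = 0.0095). Without KD replicate 1, or without NC replicate 1, only Mars2 and Nars were called, and without KD replicate 2 Hars was lost; quantile normalization called Hars, Mars2 and Tars.

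These 5 genes are all among the 14 lower in oKO L2C embryos (5 of 5, and 5 of 14), and the Trim-away and oKO libraries share no samples. Over all genes, 578 of the 686 lower in libraries titled KD were also lower in oKO L2C (84.3%, and 18.3% of the 3159 lower in oKO). Elsewhere the experiments gave unlike values side by side. Eprs was at 12.1 and 12.4 FPKM in libraries titled KD against 17.5 and 12.5 in libraries titled NC (-0.26 ± 0.23), and Gars at 2.73 and 3.92 FPKM in libraries titled KD against 1.71 and 2.49 in libraries titled NC (0.48 ± 0.24). Yars2 was at 1.36 and 0.624 FPKM in libraries titled KD against 1.93 and 2.30 in libraries titled NC. The oKO effect at L2C was more negative than the KD effect for Gars (difference -1.86 ± 0.32), Eprs (-1.61 ± 0.30), Rars (-1.30 ± 0.36), Hars (-1.27 ± 0.37) and Yars2 (-1.19 ± 0.45). These were 5 of 23 members tested, a share no higher than the 28.8% of all genes called. The median difference was -0.60 over the members tested and -0.62 over all genes. With a common median ratio only Eprs and Gars of these 5 were called, together with Fars2 in the other direction, and without KD replicate 2 Eprs and Gars alone; Eprs, Gars and Rars were called without control L2C replicate 2 or without NC replicate 2, and the call on Yars2 was lost whichever of the 8 libraries was left out. Lars2 was at 26.8 and 27.6 FPKM in libraries titled KD against 20.6 and 16.8 in libraries titled NC (0.53 ± 0.82), and Fars2 at 26.5 and 19.3 against 19.6 and 27.2 (-0.03 ± 0.27). Blood and immune markers summed to 115 to 143 FPKM in libraries titled KD against 50.6 to 74.0 FPKM in libraries titled NC, nearly all Hba-a1. Of 9 such markers, 2 were at 1 FPKM or more in both libraries titled KD and 1 in both titled NC. Lyz2 was at 3.26 and 3.74 FPKM in libraries titled KD against 0.399 and 1.76 in libraries titled NC. Cd68 was at 0.640 and 1.13 against 3.92 and 0.402 FPKM, and Hbb-b1 and Hbb-b2 were at 0 in all 4. The part of these markers in the synthetase values was not tested.

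**Figure D5:**
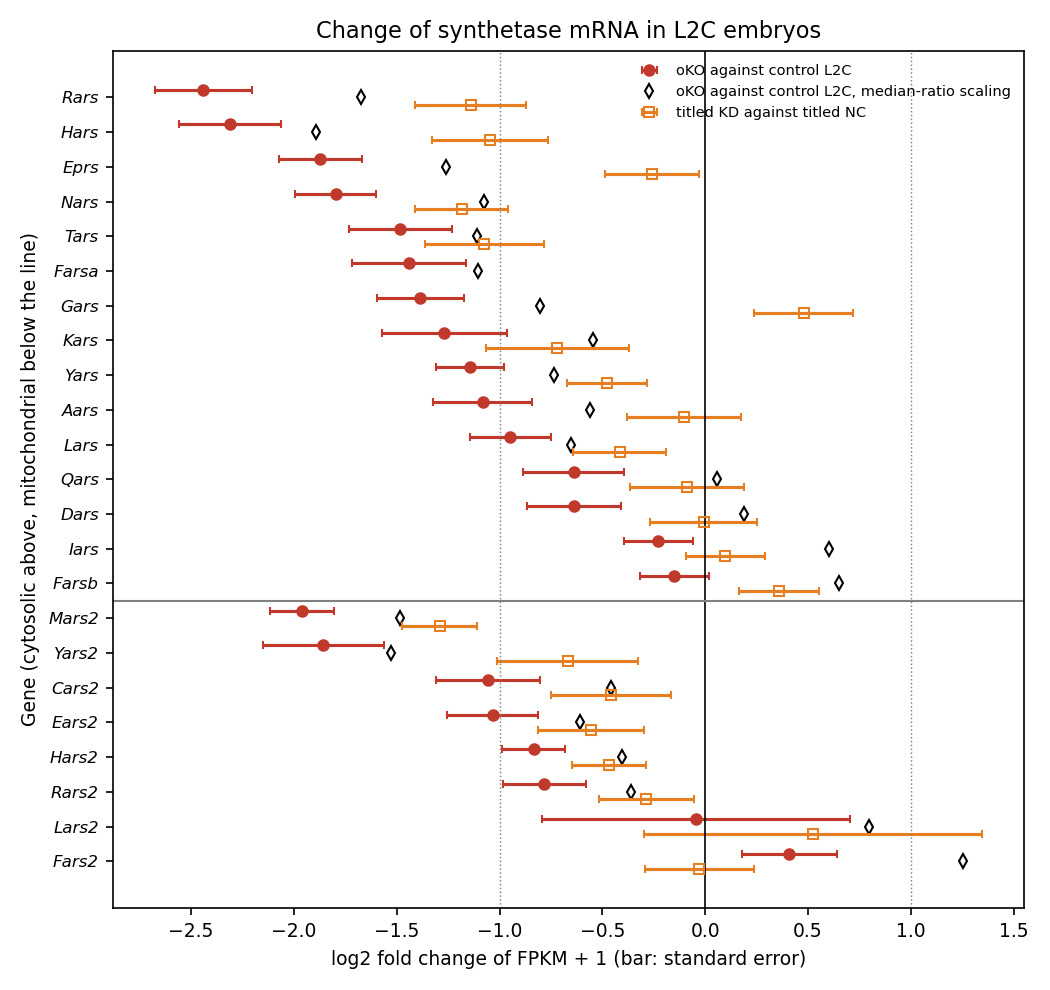
Log2 fold change on the FPKM + 1 scale (x axis; bars are standard errors, diamonds have none) of the 23 genes tested at L2C, cytosolic above the grey line and mitochondrial below it. Filled circles are oKO against control, open diamonds the same with a common median ratio, and open squares libraries titled KD against libraries titled NC (Farsa was not tested there). Rars is at -2.44 in oKO and -1.14 in KD, and Gars at -1.39 in oKO and 0.48 in KD.

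Between E2C and L2C the oKO effect itself changed for 12 of 20 members tested, where 37.8% of all genes were called. The median difference was -1.25 over the members tested against -0.50 over all genes. With a common median ratio, 6 of 17 cytosolic genes went down and none up, and of 8 mitochondrial genes 2 went down and 1 up. The next values are on the deposited scale. The oKO effect went down for Rars (difference of effects -3.38 ± 0.38), Nars (-2.85 ± 0.32), Lars (-2.53 ± 0.32) and Eprs (-2.10 ± 0.33), the first 3 of which were higher in both oKO pools at E2C and lower in both at L2C. Hars (-1.99 ± 0.40), Tars (-1.76 ± 0.41) and Qars (-1.60 ± 0.39) also went down, as did Yars2 (-2.04 ± 0.48), Mars2 (-2.00 ± 0.27), Cars2 (-1.26 ± 0.41) and Rars2 (-1.25 ± 0.33). Fars2 alone went up (1.34 ± 0.37), lower in both oKO pools at E2C and higher in both at L2C. The call on Cars2 was lost without oKO E2C replicate 2, either E2C control or either L2C control, that on Fars2 without E2C control replicate 1, on Rars2 without E2C control replicate 2 and on Yars2 without L2C control replicate 1.

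Genes that work beside the synthetases were counted from lists drawn up from general knowledge. Of 11 synthetase partners tested at L2C, 6 were lower in oKO embryos and none higher, with a median log2 fold change of -1.20, against 40.7% of all genes and a median of -0.79, and 4 of 11 were lower with a common median ratio, against 15.5% of all genes. The 3 scaffold proteins of the multi-synthetase complex were among them. Eef1e1 was at 19.6 and 15.3 FPKM in oKO L2C against 113 and 117 in control L2C (-2.66 ± 0.19), and at 53.2 and 71.3 FPKM in libraries titled KD against 124 and 93.5 in libraries titled NC (-0.80 ± 0.22, not called). Aimp2 (-1.99 ± 0.30), Dtd1, which removes D-amino acids from tRNA (-1.89 ± 0.28), and Aimp1 (-1.88 ± 0.34) also fell at L2C. Dtd1 was at 0.322 and 0.368 FPKM in oKO L2C against 3.75 and 4.26 in control L2C. Like other partners with an oKO mean under 1 FPKM, such as Qrsl1, it entered the test through the control libraries. In the Trim-away comparison 1 of 11 partners was called higher and none lower, against 7.86% and 8.47% of all genes. It was Pstk, a kinase of the selenocysteine pathway, at 8.89 and 8.03 FPKM in libraries titled KD against 2.41 and 2.27 in libraries titled NC (1.50 ± 0.29).

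Of 39 genes of tRNA transcription, processing, modification and export tested at L2C, 31 were lower in oKO embryos and none higher, with a median of -1.29, against 40.7% of all genes lower and a median of -0.79. With a common median ratio 14 of 43 were lower and 1 higher, against 15.5% and 16.5% of all genes. The largest falls were in Tsen15, a subunit of the tRNA splicing endonuclease (-3.17 ± 0.25), and in the RNase P subunits Rpp30 (-2.96 ± 0.21), Rpp40 (-2.91 ± 0.25) and Pop5 (-2.80 ± 0.21). Rpp30 was at 17.8 and 15.1 FPKM in oKO L2C against 134 and 136 in control L2C. Tsen15 was at 0.859 and 0.954 FPKM in oKO L2C against 14.3 and 18.2 in control L2C. Like other listed genes with an oKO mean under 1 FPKM, among them Xpot and Trub2, it entered the test through the control libraries. In libraries titled KD, 9 of 38 were lower and none higher, with a median of -0.66 (8.47% of all genes were lower, with a median of -0.13), led by Rpp38 (-1.55 ± 0.27), Trnt1, which adds the CCA end of tRNAs (-1.54 ± 0.23), Trmt6 (-1.46 ± 0.25) and Trmt10c (-1.43 ± 0.24).

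In the amino acid response, the arm in which uncharged tRNA activates Eif2ak4 and Atf4 is made, 9 of 15 genes tested at L2C were lower in oKO embryos and 1 was higher, against 40.7% and 6.80% of all genes. Psat1, an enzyme of serine synthesis, was at 5.35 and 4.80 FPKM in oKO L2C against 39.0 and 38.8 in control L2C (-2.72 ± 0.22), followed by Eif4ebp1 (-2.31 ± 0.38) and Phgdh, another serine synthesis enzyme (-1.66 ± 0.33). Phgdh was at 0.255 and 0.789 FPKM in oKO L2C against 4.08 and 3.40 in control L2C. It entered the test through the control libraries, as did others such as Sesn2 and Slc7a5. Ddit3, a stress-induced transcription factor, was higher, at 11.2 and 15.4 FPKM in oKO L2C against 2.83 and 6.32 in control L2C (1.42 ± 0.29); its gene overlaps Mars. With a common median ratio 4 of 15 were lower and 2 higher (15.5% and 16.5% of all genes), and 4 were lower and 3 higher with quantile normalization (19.6% and 16.7% of all genes). In libraries titled KD, Psat1 was lower (-1.60 ± 0.25) and Ddit3 higher (1.21 ± 0.33) among 13 tested, where 8.47% of all genes were lower and 7.86% higher. Before L2C these lists showed few calls, with none in FGO or 1C by limma. Unadjusted p was under 0.05 for 4, 10 and 4 genes of the 3 lists in FGO and for 1, 4 and 2 in 1C. Of all genes, 1.74% were called higher and 1.32% lower in FGO, and 1.74% and 2.45% in 1C. In oKO MII oocytes 1 of 10 partners, Pstk (1.30 ± 0.20), was higher, against 4.28% of all genes. Higher too were 2 of 11 amino acid response genes, Ddit3 (1.17 ± 0.23) and Eif4ebp1 (1.10 ± 0.30). Eif4ebp1, at 0.811 and 0.365 FPKM in control MII oocytes, entered the test through the oKO libraries. At E2C, 1 of 9 partners was higher in oKO embryos, Sepsecs, of the selenocysteine pathway (1.18 ± 0.35), and 1 was lower, Prorsd1 (-1.08 ± 0.29). Of 19 tRNA genes 2 were lower in oKO embryos, Gtf3c6 of the RNA polymerase III machinery (-2.15 ± 0.40) and Clp1, an RNA kinase (-1.07 ± 0.30). Of all genes at E2C, 3.59% were higher and 7.89% lower.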

How the data were processed

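RNA-seq libraries of 20 oocytes or embryos (Smart-seq2) were processed by the authors, with HISAT2 2.2.1 on mm9 after trimming (Trim Galore 0.6.6); their methods name HTSeq, StringTie and FeatureCounts for expression. The authors deposited 1 table of FPKM per gene and library, and which of these tools wrote it is not stated. Whole reads could not be recovered, so the depth is unknown, count tests were not run and no interval for counting error is given. Of 24085 rows, 2 without values and 27 with names turned into dates were left out. Log2(FPKM + 1) of all 24 libraries entered 1 fit in limma 3.58.1 (R 4.3.3) with trended, robust empirical Bayes, 1 array weight per collection and 12 residual degrees of freedom. Genes with a mean of at least 1 FPKM over the libraries compared were tested two-sided with Benjamini-Hochberg adjustment over them, and a call required a change of 2-fold or more with an adjusted p no higher than 0.05. Exact permutation of 2 against 2 pools cannot go below 0.333, so no single-gene permutation test is given. The fit was tested on simulated data. Groups came from the sample titles. No 2 libraries held identical values. Replicate numbers were checked for pairing: same-numbered deviations correlated at -0.23 to 0.21, so the numbers were not treated as pairs.

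Members and lists were chosen with earlier results of these data known. Values in every library were given for members called in a treatment comparison (up to 12 per class), or else for the class's 2 members of highest mean FPKM. For control steps up to 4 called members per class and direction, and for the other lists up to 4 called genes, with the largest change were named; Mars2 at L2C in controls, Sars2, Mars and other members given only as values were named after their values were seen. Alternatives were the pseudocount, the filter, 2 scalings (median ratio and quantile), no weights, only the groups compared, a replicate block, leaving out each library, and calling without the fold threshold. The 16 Stacc-seq samples were not analysed here.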

Additional observations from a re-analysis of the deposited data

Results flagged for a closer look

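Members whose effect differed between stages or between experiments, by a test of the difference itself, were singled out; no explanation was weighed. Between 1C and E2C the oKO effect went up for Lars (2.04) and Nars (1.49) on the log2 scale. Between E2C and L2C it went down for Rars (-3.38), Nars (-2.85), Lars (-2.53), Eprs (-2.10), Yars2 (-2.04), Mars2 (-2.00), Hars (-1.99), Tars (-1.76), Qars (-1.60), Cars2 (-1.26) and Rars2 (-1.25), and went up for Fars2 (1.34). Between the L2C comparisons, the oKO effect was more negative than the KD effect for Gars (-1.86), Eprs (-1.61), Rars (-1.30), Hars (-1.27) and Yars2 (-1.19). These were 5 of 23 members tested, where 28.8% of all genes were called. With 2 libraries per group no library could be tested for standing apart within its group.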

How the results depend on the processing

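None of the 76 calls on named members changed direction under the alternatives run. At L2C, Dars, Qars, Iars, Farsb and Lars2, none of them called, were lower in oKO on the deposited scale and higher with either scaling. A repeat was counted only where the alternative tested the gene, which with a filter at a mean of 5 FPKM held for 36 of the 76 calls. Of 1024 such repeats of the 76 calls, 879 stayed called and 145 were not called, 47 of these with a pseudocount of 5 and 23 each with median-ratio scaling and quantile normalization. The causes were not tested. With a pseudocount of 0.1, 1 member was called in MII oocytes. With a pseudocount of 5, the members called became 0 at E2C, 4 at L2C, 2 in Trim-away, 0 from MII to 1C, 7 from 1C to E2C and 4 from E2C to L2C in controls, and for the differences of effects 1 (E2C and 1C), 6 (L2C and E2C) and 0 (oKO and KD). With a filter at a mean of 5 FPKM, which tests fewer genes, they became 1 at E2C, 4 at L2C, 8 from 1C to E2C and 5 from E2C to L2C, and 1, 3 and 3 for those differences. Median-ratio scaling gave 4 at E2C, 9 at L2C, 6 from 1C to E2C and 3 for oKO and KD. Quantile normalization gave 4 at E2C, 9 at L2C, 3 in Trim-away, 8 from 1C to E2C and 3 for oKO and KD. A fit of only the libraries compared gave 1 at E2C and 1 for E2C and 1C. Without the 2-fold threshold, 1 was called in FGO, 3 in MII oocytes, 1 in 1C, 5 at E2C, 14 from FGO to MII and 10 from MII to 1C. No filter and no array weights moved no count by over 1.5 times.

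With each library left out in turn, counts ran from 0 to 1 in FGO, 0 to 0 in MII oocytes, 0 to 1 in 1C, 1 to 5 at E2C, 12 to 15 at L2C and 2 to 5 in Trim-away. In control steps they ran from 7 to 7 (FGO to MII), 1 to 3 (MII to 1C), 12 to 16 (1C to E2C) and 12 to 14 (E2C to L2C). For differences of effects they ran from 0 to 2 (MII and FGO), 0 to 0 (1C and MII), 1 to 4 (E2C and 1C), 10 to 14 (L2C and E2C) and 2 to 5 (oKO and KD). The samples share only a replicate number: with the number as a replicate block, the counts of every comparison stayed as they were (0 in FGO, MII oocytes and 1C, 2 at E2C, 14 at L2C, 5 in Trim-away) except oKO and KD, with 4 against 5. A crossed pairing, chosen after seeing the data, gave 0 in FGO and 5 in Trim-away. Depth is unknown, so that values under 1 FPKM cannot be given a counting error.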
